A study of Zea mays with 57 samples.

Results

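The 8 genes that encode enzymes of the C4 photosynthetic cycle were followed in maize shoots during the first 120 min after nitrogen-starved seedlings received nitrogen. They were taken from the 46335 genes of the count table by their gene IDs: 3 carbonic anhydrase genes (CA-099, Zm00001d044099; CA-096, Zm00001d044096; CA-095, Zm00001d044095), PEP carboxylase (PEPC, Zm00001d046170), NADP-malate dehydrogenase (NADP-MDH, Zm00001d031899), pyruvate phosphate dikinase (PPDK, Zm00001d038163), NADP-malic enzyme (NADP-ME, Zm00001d000316) and PEP carboxykinase (PEPCK, Zm00001d028471). All 8 passed the filter on low counts, which kept 18412 genes. Seedlings of the inbred line B73, 10 days old, had been without nitrogen for 2 days, and all groups shared this starvation. They were then moved to medium with 20 mM KNO3 and 20 mM NH4NO3, of which 10% of the nitrogen carried the 15N label, or to a nitrogen-free control with 20 mM KCl. Whole shoots were taken at the start (0 min) and at 9 times from 5 to 120 min in each medium, giving 19 groups of 3 replicates. A replicate is a pool of 3 seedlings, and the errors given below describe pools, not single plants. Chloride and total salt differed between the media along with nitrogen, and the comparison does not separate them.

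In the C4 cycle, carbonic anhydrase turns carbon dioxide into bicarbonate in the mesophyll cells of the leaf, and PEP carboxylase fixes the bicarbonate to phosphoenolpyruvate (PEP). NADP-malate dehydrogenase reduces the resulting oxaloacetate to malate in mesophyll chloroplasts. The acids move to the bundle sheath cells, where NADP-malic enzyme, and in maize also PEP carboxykinase, release the carbon dioxide to Rubisco. Pyruvate phosphate dikinase then regenerates PEP in the mesophyll. These enzymes are a large store of leaf nitrogen, and in maize the transcripts of PEP carboxylase and carbonic anhydrase are known to respond to nitrogen supply. The direction of that known response was not compared with the values below. Both cell types were present in a whole shoot, so fewer cells of a type and less RNA per cell cannot be told apart in any value below.

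The 3 carbonic anhydrase genes lie together on the minus strand of chromosome 3 of the AGPv4 assembly, between positions 219031166 and 219082694. CA-095 and CA-096 are 3.922 kb apart, and 31.518 kb with 2 further gene models separate CA-096 from CA-099. Reads that match more than 1 of these copies could have been split between them or lost in counting, so the division of counts among the 3 genes is uncertain. PEPC is on chromosome 9 (68851094 to 68856482, minus strand), PPDK on chromosome 6 (150024486 to 150035717, plus strand), and NADP-MDH (205992135 to 205996030, minus strand) and PEPCK (35960441 to 35964750, plus strand) on chromosome 1. NADP-ME is the single gene model on an unplaced contig, at positions 18903 to 24123 of its plus strand. No other gene model overlaps any of the 8 genes.

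Levels are given as TMM-scaled counts per 1000000 (CPM) of 3′ end reads, collapsed by unique molecular identifiers, and are compared between libraries within a gene, not between genes. Library totals ran from 1057488 to 5684785 counts, with a median of 2809128 in nitrogen medium (n = 26) and 2006288 in KCl (n = 27). The exception was nitrogen 120 min replicate 3, with 8560 counts, of which PEPC had 54 and CA-095 had 0. It was kept in the fitted comparisons but left out of the levels, ratios, correlations and counts of libraries that do not overlap. Each of the 8 genes had at least 477 counts in every other library apart from CA-095, which had 2 to 72.

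The first question was whether the genes differed between the media over the whole course. Genes of the mesophyll steps were lower in nitrogen than in KCl, while the decarboxylases had average log2 differences of -0.13 (NADP-ME) and -0.12 (PEPCK). A covariate for the direction along which replicates differed, described further on, was added after seeing the data. With it this split did not hold. NADP-ME was then at -0.35 and PEPCK at -0.21, beside -0.41 for PEPC and -0.23 for PPDK. That covariate also differed between the media, so its part in the split cannot be told apart from the medium. With a covariate that by construction averages 0 in each group, PEPC was at -0.86, NADP-ME at -0.12 and PEPCK at -0.10. Averaged over the 9 times without a covariate, 7 of the 8 genes, NADP-ME among them, were called lower in nitrogen and 0 higher. Calls are from the edgeR quasi-likelihood test, at a Benjamini-Hochberg adjusted p under 0.05 over all genes tested. In the same comparison 58.8% of all genes were called, 28.9% lower and 29.9% higher, so a call alone was common. The median log2 difference of the 8 genes was -0.42, against 0.01 for all genes tested. Together the 8 genes took 1.66% ± 0.312 of all counts at the start (SD, n = 3), 2.16% ± 0.234 in KCl (n = 27) and 1.54% ± 0.218 in nitrogen (n = 26).

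**Figure D1:**
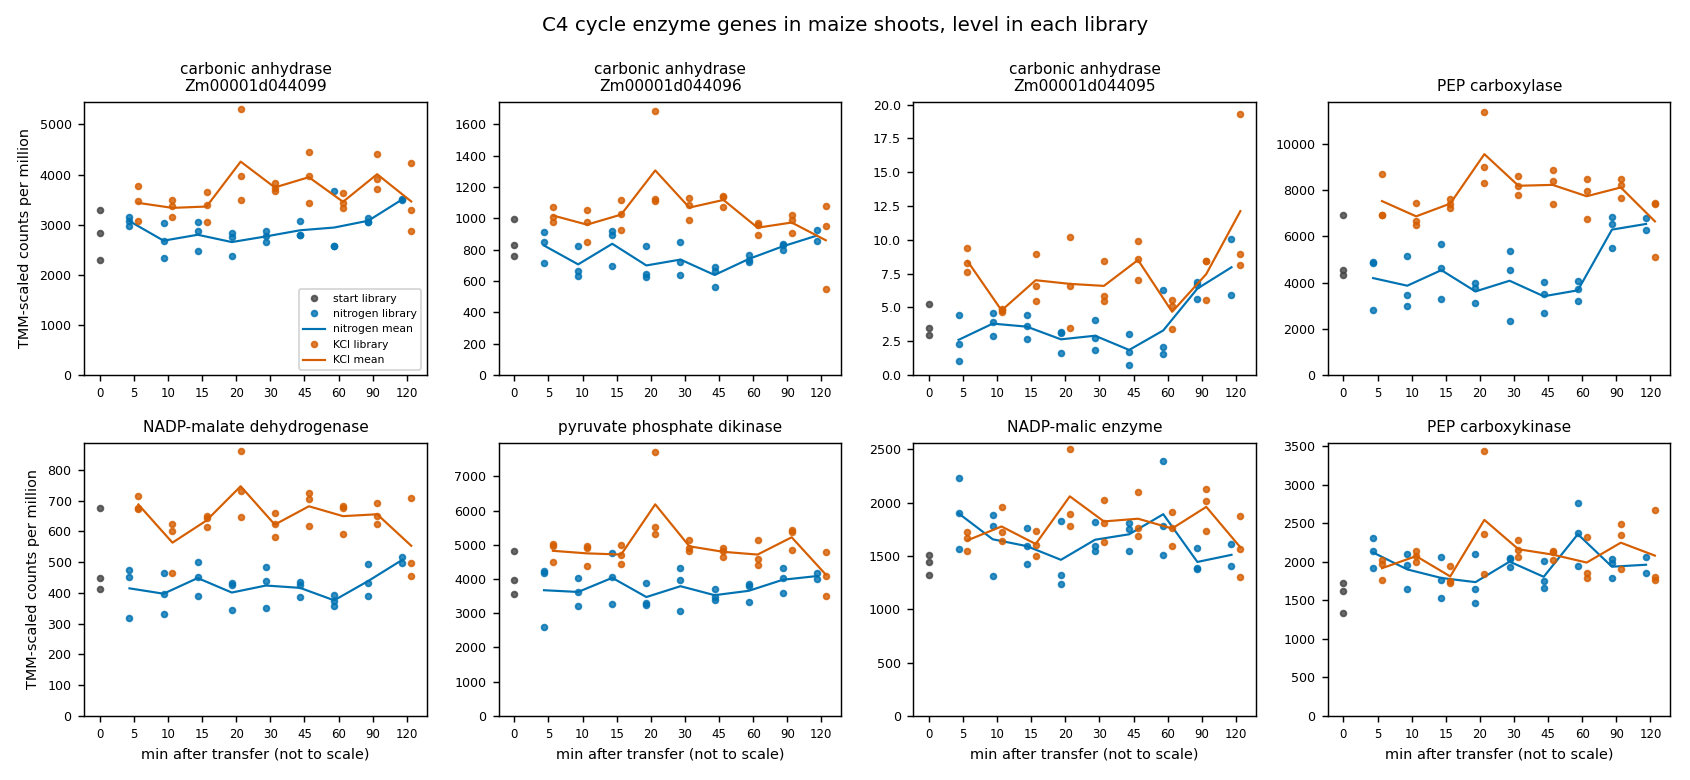
Level of each gene in every library (points) and the mean of each group (lines), in TMM-scaled CPM, against minutes after transfer; the time axis is not to scale and nitrogen 120 min replicate 3 is left out. For PEPC, NADP-MDH, PPDK and CA-095 the nitrogen line stays below the KCl line at each time, and for NADP-ME and PEPCK the lines cross. For CA-099 and CA-096 the nitrogen line is above the KCl line at 120 min.

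PEPC, which makes the first C4 acid, differed most among the genes with ample counts. It ranged from 2325 to 6829 CPM over the nitrogen libraries, with a median of 4046, and from 5110 to 11369 CPM over the KCl libraries, with a median of 7660. The start libraries were at 4566, 4308 and 6908 CPM. Of the 26 nitrogen libraries 18 were below every KCl library of any time, and 23 of the 27 KCl libraries were above every nitrogen library. Such counts across all times, here and for PPDK and CA-096 below, were not made over all genes, so how common they are is not known. The average log2 difference was -0.86 (SE 0.0773, adjusted p = 1.92e-13, edgeR), with a 95% interval from -1.02 to -0.71. It was lower in nitrogen at 9 of 9 times, which 10.8% of all genes were.

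The course of PEPC in nitrogen was not even. At 45 min the nitrogen libraries held 4038, 2705 and 3486 CPM and the KCl libraries 7414, 8865 and 8405. At 60 min they held 3222, 4054 and 3720 CPM in nitrogen and 6762, 7958 and 8490 in KCl. At both times all nitrogen libraries were far below all KCl libraries. At 90 min the nitrogen libraries held 6829, 6548 and 5499 CPM and the KCl libraries 8466, 8224 and 7660, so the groups still did not overlap but had come closer. The log2 difference was -1.27 at 45 min (adjusted p = 0.000102), -1.08 at 60 min (adjusted p = 0.000857) and -0.37 at 90 min (adjusted p = 0.37), all by edgeR. The spread between replicates was also uneven: log2 levels within groups had a pooled SD of 0.17 in KCl (n = 27) against 0.36 in nitrogen (n = 26), a difference that was not tested.

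NADP-MDH, the enzyme that makes malate, was lower in nitrogen at 9 of 9 times and was called at 7 of them, more times than any other of the 8 genes. Its nitrogen libraries ranged from 318 to 518 CPM with a median of 429, its KCl libraries from 456 to 861 CPM with a median of 649. The start libraries held 447, 414 and 676 CPM. The average log2 difference was -0.60 (SE 0.0544, adjusted p = 1.92e-13, edgeR). No nitrogen group mean was above the start mean of 513 ± 143 CPM (SD, n = 3), whereas all 9 KCl group means were. The nearest group means were 508 CPM in nitrogen and 553 CPM in KCl, both within that SD.

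PPDK, which regenerates PEP, ranged from 2594 to 4754 CPM in nitrogen with a median of 3822 and from 3509 to 7724 CPM in KCl with a median of 4892. The media overlapped more than for PEPC: 18 of 27 KCl libraries were above every nitrogen library, and 9 of 26 nitrogen libraries were below every KCl library. The average log2 difference was -0.40 (SE 0.0581, adjusted p = 5.33e-08, edgeR), lower at 9 of 9 times. The maize PPDK gene is known to give a chloroplast and a cytosolic form from different start sites, which 3′ end counts do not separate.

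Carbonic anhydrase is the enzyme that supplies bicarbonate to PEPC, and the part of each gene in that step was not tested. The 3 carbonic anhydrase genes were all lower in nitrogen on average, and their fitted differences were below 0 at 9 of 9 times. For CA-099 and CA-096 the value at 120 min rests on the library of 8560 counts: without it the fitted differences there were 0.0035 and 0.039, so they were below 0 at 8 of 9 times. CA-099 had a median of 2867 CPM in nitrogen (range 2334 to 3679) and 3622 CPM in KCl (range 2874 to 5300). Its average log2 difference was -0.34 (SE 0.0506, adjusted p = 1.39e-07, edgeR). CA-096 had a median of 749.9 CPM in nitrogen (range 560.4 to 923) and 1020.3 CPM in KCl (range 549 to 1686), a log2 difference of -0.43 (SE 0.0543, adjusted p = 2.4e-09, edgeR). Its lowest library of all was KCl 120 min replicate 3, at 549 CPM, so no nitrogen library was below every KCl library, although 23 of 27 KCl libraries were above every nitrogen library. The ratio of CA-096 to CA-099 counts within a library was 0.263 ± 0.0373 in nitrogen (SD, n = 26) and 0.281 ± 0.0332 in KCl (n = 27), which differed by less than these SDs.

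CA-095 had few counts, with a median of 11.5 per library. It averaged 3.74 ± 2.16 CPM in nitrogen (SD, n = 26), 7.37 ± 3.07 CPM in KCl (n = 27) and 3.90 ± 1.18 CPM at the start (n = 3). The average log2 difference was -0.997 (SE 0.145, adjusted p = 7.36e-08, edgeR), with a 95% interval from -1.29 to -0.71. The KCl 120 min libraries held 8.95, 8.13 and 19.3 CPM, of which the last was the highest of all libraries. At such counts sampling alone gives a wide spread, and the single times are read with that limit.

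The decarboxylases NADP-ME and PEPCK, which release carbon dioxide in the bundle sheath, overlapped widely between the media. NADP-ME had a median of 1593 CPM in nitrogen (range 1239 to 2386) and 1738 CPM in KCl (range 1301 to 2499). Its average log2 difference was -0.13 (SE 0.0538, adjusted p = 0.0372, edgeR), with an interval from -0.24 to -0.02, and without the 20 min groups it was -0.09 and no longer called (adjusted p = 0.142). PEPCK had a median of 1972 CPM in nitrogen (range 1470 to 2766) and 2022 CPM in KCl (range 1731 to 3443). Its average log2 difference of -0.12 (SE 0.059) did not pass the test (adjusted p = 0.0774, edgeR), although it passed in 23 of 69 alternatives. Both genes were lower in nitrogen at 7 of 9 times and had positive values at 5 min (0.21 and 0.15) and at 60 min (0.11 and 0.25), none of them called.

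The next question was when the media differed. Of 72 tests of a gene at a time 25 were called, all of them lower in nitrogen, where 7.14% of all such tests were called lower and 6.07% higher. In 46 of the 72 all 3 nitrogen libraries were below all 3 KCl libraries and in 0 all were above, against 15.7% and 15.8% of all genes and times. At 5 min 3 genes were called (NADP-MDH -0.73, PEPC -0.84 and CA-095 -1.63), where 9.71% of all genes were called lower. At 10 min 0 were called, where 0.13% of all genes were called lower, although 5 had an unadjusted p under 0.05; DESeq2 called 0, and limma called 1 on the authors' normalized table. At 15 min PEPC (-0.71) and NADP-MDH (-0.50) were called, where 4.87% of all genes were called lower. PEPC and NADP-MDH, which together make malate from bicarbonate and PEP, were thus called at the first time sampled, but with a covariate for the direction along which replicates differed, described further on, no 5 min call remained (PEPC -0.25, adjusted p = 0.514; NADP-MDH -0.38, adjusted p = 0.189).

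At 20 min all 8 genes were called lower, where 13.4% of all genes were. The log2 differences were -1.40 for PEPC, -1.31 for CA-095, -0.90 for CA-096 and NADP-MDH, -0.83 for PPDK, -0.68 for CA-099, -0.55 for PEPCK and -0.49 for NADP-ME. In this fit it was the single time at which the decarboxylases passed the test. With the covariate described further on NADP-ME was also called at 90 min (-0.52, adjusted p = 0.00728, edgeR). The KCl 20 min group had the highest mean of all 19 groups for each gene except CA-095, and within it replicate 3 was the highest library for each gene except CA-095. For PPDK its libraries held 5509, 5308 and 7724 CPM, and for PEPCK 2357, 1838 and 3443. Without KCl 20 min replicate 3 the difference of PEPCK was -0.30 (adjusted p = 0.265) and that of NADP-ME -0.36 (adjusted p = 0.153), both no longer called, and that of PEPC was -1.29 (adjusted p = 0.000521, edgeR).

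At 30 min 4 genes were called (PEPC -1.005, NADP-MDH -0.55, CA-096 -0.54 and CA-099 -0.44), where 7.66% of all genes were called lower. At 45 min 5 genes were called (CA-095 -2.17, PEPC -1.27, CA-096 -0.81, NADP-MDH -0.71 and CA-099 -0.45), where 13.7% were. At 60 min PEPC (-1.08) and NADP-MDH (-0.79) were called, where 10.9% were. From 60 min on no carbonic anhydrase gene passed the test in this fit. With the covariate described further on CA-099 was called at 90 min (-0.41, adjusted p = 0.0399, edgeR). At 90 min NADP-MDH (-0.58) was called, where 3.37% of all genes were called lower. At 120 min 0 were called by edgeR, 0 by DESeq2 and 0 by limma on the authors' normalized table, and 0 of the 8 had an unadjusted p under 0.05, where 0.587% of all genes were called lower.

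The 120 min values rest in part on the library of 8560 counts. Without it the log2 difference at 120 min moved from -0.25 to -0.04 for PEPC and from -0.22 to -0.03 for PPDK, and CA-096 moved from -0.02 to 0.04. In the other nitrogen 120 min libraries PEPC held 6281 and 6793 CPM, beside 7383, 7455 and 5110 CPM in KCl, so the media overlapped.

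**Figure D2:**
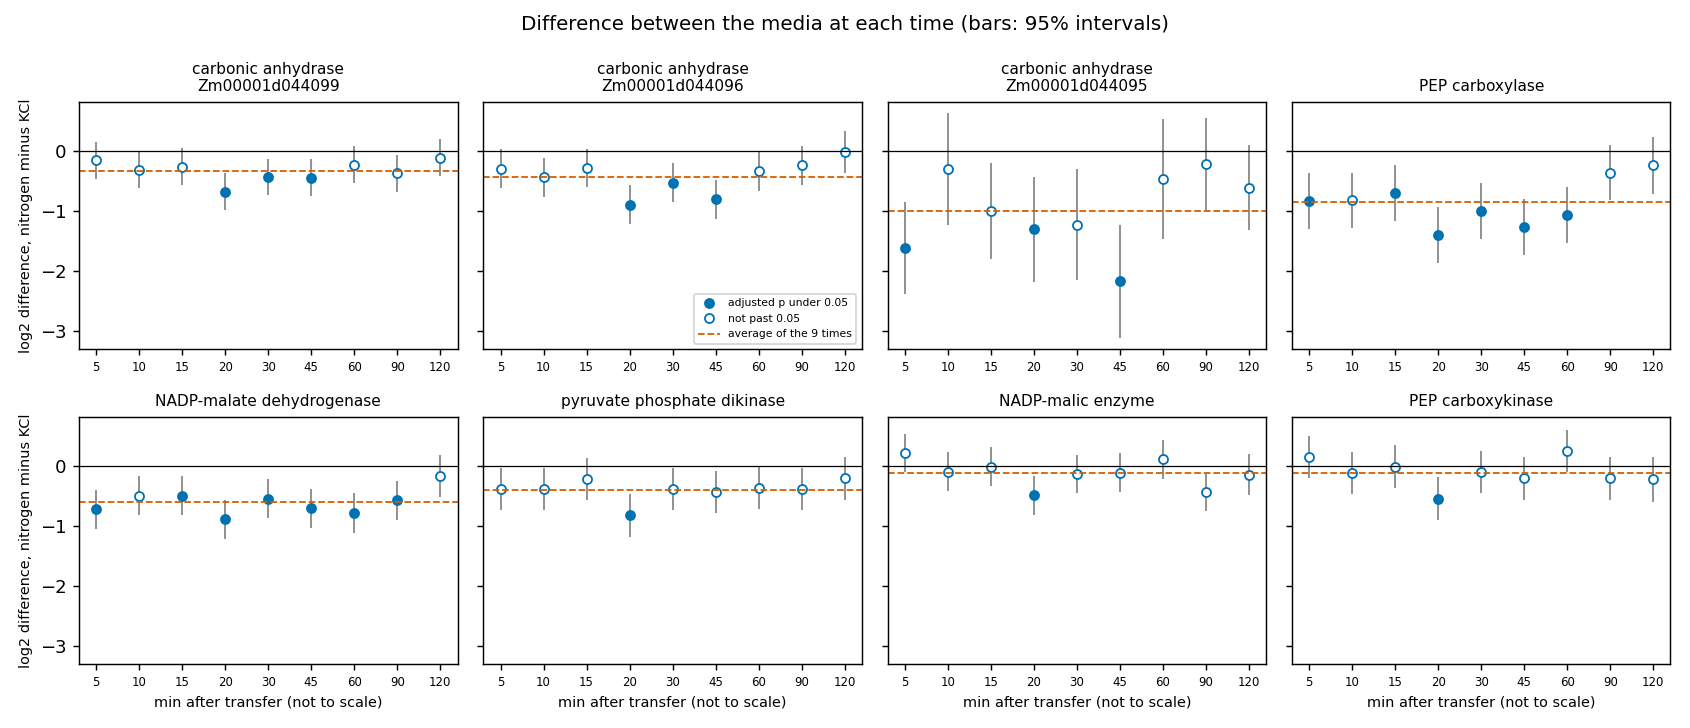
Fitted log2 difference, nitrogen minus KCl, at each time (circles, filled where the adjusted p is under 0.05) with 95% intervals (bars) and the average over 9 times (dashed line). All filled circles lie below 0, PEPC and NADP-MDH are filled at 6 and 7 times, and at 20 min all 8 genes are filled.

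Calls at single times were lost to different degrees when a library was left out. Leaving out 1 of 3 replicates also lowers the power, so a lost call does not by itself show dependence on that library. Of the 25 calls 12 remained whichever library was left out: NADP-MDH at 5, 20, 45 and 60 min, PEPC at 20, 45 and 60 min, CA-096 at 20 and 45 min, CA-099 and PPDK at 20 min, and CA-095 at 45 min. The other 13 were each lost without at least 1 library of their own time. Both 15 min calls were lost without any of 5 libraries, the exception being nitrogen 15 min replicate 2, and CA-099 at 30 min was lost without any of the 6. Its value stayed between -0.46 and -0.42 in these fits, and its adjusted p with all libraries was 0.0437 (edgeR). Without nitrogen 5 min replicate 3 the 5 min calls of PEPC (-0.64, adjusted p = 0.137) and CA-095 (-1.28, adjusted p = 0.0574) were lost, and without nitrogen 30 min replicate 3 all 4 of the 30 min calls were lost. NADP-MDH at 90 min was lost without KCl replicate 1 or nitrogen replicate 2 or 3, and CA-099 at 45 min without nitrogen replicate 1 or 2 or KCl replicate 2 or 3. CA-096 and NADP-MDH at 30 min were also lost without KCl replicate 1, and CA-096 without KCl replicate 2 or nitrogen replicate 1. At 20 min CA-095 was lost without KCl replicate 2 or nitrogen replicate 3, and also with DESeq2 and with thinned counts. NADP-ME was lost there without KCl replicate 3 or nitrogen replicate 1 or 3, and PEPCK without KCl replicate 3 or nitrogen replicate 3.

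Whether the difference changed over the course was tested as the mean of 45 to 120 min minus the mean of 5 to 30 min. For the early mean 6 genes were called lower, where 23.9% of all genes were, and for the late mean the same number, where 20.8% were; NADP-ME and PEPCK were past the test in neither. PEPC was -0.96 (SE 0.104) in the early mean and -0.74 (SE 0.116) in the late mean. The change between them was 0.22 (SE 0.155, adjusted p = 0.617, edgeR), with an interval from -0.09 to 0.53. Of the 8 genes 0 were called in this test by edgeR, 0 at an unadjusted p under 0.05, 0 by DESeq2 and 0 by limma, where 1.41% of all genes were called. Within KCl 0 genes were called between the early and the late mean, where 6.17% of all genes were, and within nitrogen 0 were called, where 6.4% were (0 and 1 at an unadjusted p under 0.05, and 0 by DESeq2 and by limma in both). The late mean pools 45 and 60 min with 90 and 120 min, so this test does not address the smaller PEPC differences at 90 and 120 min, which were not tested against the earlier times.

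The start libraries showed where each medium stood relative to the starved shoots; both comparisons share them, and they also span the transfer and the time of day. The KCl mean was above the start for 3 genes, PEPC by 0.56 (SE 0.18, adjusted p = 0.0331), PEPCK by 0.43 (SE 0.136, adjusted p = 0.0329) and CA-099 by 0.38 (SE 0.116, adjusted p = 0.0259) on the log2 scale (edgeR), where 4.8% of all genes were called higher. Leaving out start replicate 1 or start replicate 2 left 0 of these calls, so they were not stable. Leaving out a start library also lowers the power, so the losses do not show which library the calls rest on. Limma on the authors' normalized table also ended the calls of PEPC (0.41, adjusted p = 0.104) and CA-099 (0.20, adjusted p = 0.0681), kept PEPCK and called NADP-MDH, CA-095 and NADP-ME. The nitrogen mean was at -0.30 (SE 0.167, interval -0.63 to 0.04) for PEPC, 0.31 (SE 0.135) for PEPCK and 0.04 (SE 0.113) for CA-099. Of the 8 genes 0 were called in that comparison by edgeR, 2 at an unadjusted p under 0.05, 0 by DESeq2 and 0 by limma, where 0.521% of all genes were called. By group means, NADP-ME and PEPCK were above the start in all 9 groups of both media, the start being their lowest group of 19. PPDK and NADP-MDH were above the start in 9 KCl groups and in 0 nitrogen groups, and PEPC in 9 and 2. All these counts share the start mean of 3 libraries, and they were not made over all genes. For PPDK that mean was 4111 ± 639 CPM (SD, n = 3), beside 4086 CPM in nitrogen and 4129 CPM in KCl at 120 min.

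Ordered by their group means, the 19 groups overlapped from step to step. For each gene at least 16 of the 18 steps between neighbouring groups were smaller than the larger SD of the pair, so neighbours in the order mostly do not differ beyond their spread. The extremes were further apart. PEPC went from 3409 ± 670 CPM in nitrogen at 45 min to 9558 ± 1609 CPM in KCl at 20 min, and NADP-MDH from 376 ± 17.6 CPM in nitrogen at 60 min to 747 ± 108 CPM in KCl at 20 min (SD, n = 3). CA-096 went from 638 ± 68.5 CPM in nitrogen at 45 min to 1305 ± 329.7 CPM in KCl at 20 min.

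Ratios of counts within a library do not depend on the scaling and were used to compare the steps of the cycle between libraries. PEPC over NADP-ME, a carboxylase over a decarboxylase, had a median of 2.65 in nitrogen (range 1.27 to 4.94, n = 26) and 4.41 in KCl (range 3.31 to 5.23, n = 27). All nitrogen libraries were below all KCl libraries at 6 of 9 times. At 45 min the ratio was 2.62, 1.49 and 1.99 in nitrogen and 4.41, 4.22 and 4.77 in KCl. At 90 min it was 4.94, 4.17 and 3.99 in nitrogen and 4.21, 4.73 and 3.60 in KCl, so there the media overlapped. The ratio thus separated the media up to 60 min, except at 10 min, where nitrogen replicate 3 was at 3.94 and KCl replicate 1 at 3.31.

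PEPC over PEPCK behaved likewise, with medians of 2.19 in nitrogen and 3.77 in KCl and all nitrogen libraries lower at 7 of 9 times. PEPC over PPDK, both genes of the mesophyll steps, had medians of 1.12 and 1.56 and separated at 6 of 9 times, so PEPC was lower relative to PPDK within the same libraries. The ratio of the decarboxylases, PEPCK over NADP-ME, was 1.195 ± 0.115 in nitrogen and 1.18 ± 0.119 in KCl (SD, n = 26 and 27), with all nitrogen libraries lower at 0 of 9 times and higher at 1. These ratios are given as descriptions, with no test.

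**Figure D3:**
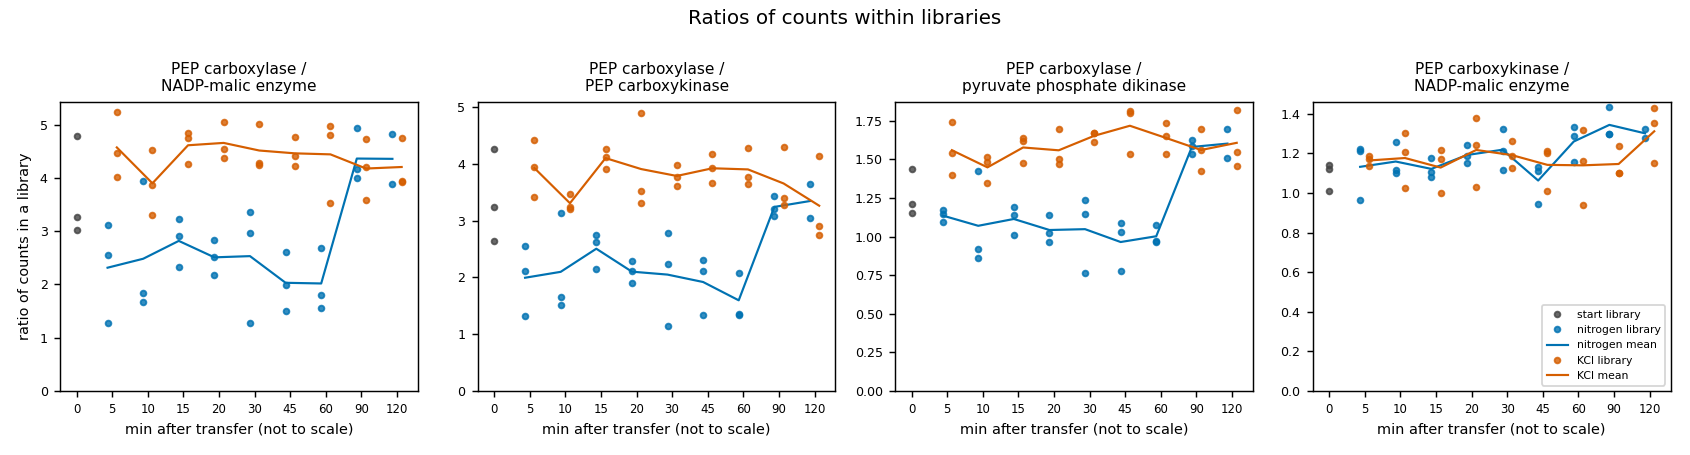
Ratio of counts of a pair of genes in each library (points) with group means (lines) against minutes after transfer; the time axis is not to scale and nitrogen 120 min replicate 3 is left out. PEPC relative to NADP-ME, PEPCK and PPDK has lower group means in nitrogen up to 60 min and comes near the KCl line at 90 and 120 min, and PEPCK relative to NADP-ME shows no such gap.

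The genes varied together to different degrees. Over the 19 group means PEPC correlated with NADP-MDH at a Pearson r of 0.94 and with PPDK at 0.92, and NADP-ME with PEPCK at 0.83, whereas PEPC and NADP-ME were at 0.32. The group means share the difference between the media, so deviations of 56 libraries from their own group means were also compared. There PEPC and PPDK were at 0.81, PEPC and NADP-MDH at 0.81, NADP-ME and PEPCK at 0.76, and PEPC and NADP-ME at -0.08. PEPCK was also at 0.56 with PPDK and at 0.66 with CA-099. CA-099 was closer to NADP-ME (0.74) than to PEPC (0.32) among replicates, and CA-096 closer to PEPC (0.74) than to NADP-ME (0.14). The genes of a library share its depth and scaling, and these values describe the libraries without a test.

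**Figure D4:**
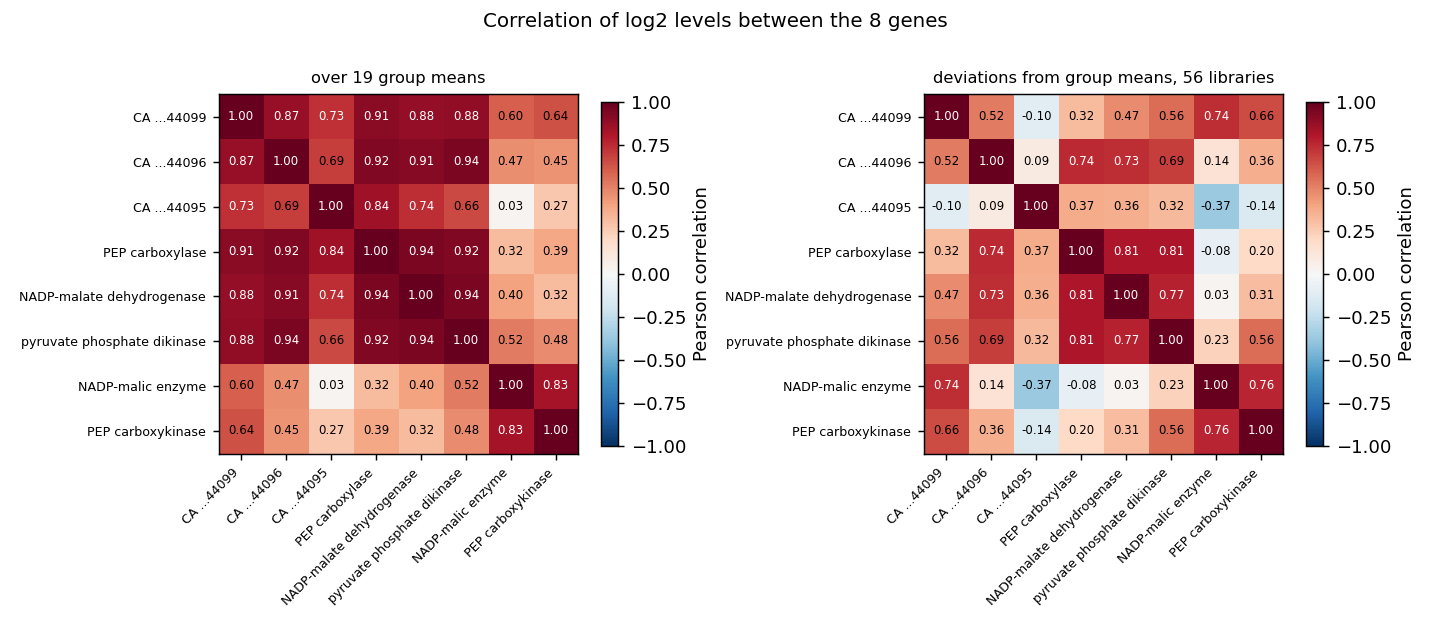
Pearson correlation of log2 levels for each pair of the 8 genes, over 19 group means (left) and over deviations from group means in 56 libraries (right). PEPC, NADP-MDH and PPDK are high with one another in both panels, as are NADP-ME and PEPCK, and among replicates PEPCK is also at 0.56 with PPDK and at 0.66 with CA-099.

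Replicates of a group differed along a shared direction that moved with these genes. The first principal component of the deviations from group means held 12.7% of their variance. Computed without the 8 genes, a library's position along it correlated within groups with PEPC at 0.76, NADP-MDH at 0.65 and CA-095 at 0.58 (n = 56). It was at 0.41 with PPDK, 0.37 with CA-096, -0.17 with CA-099, -0.25 with PEPCK and -0.55 with NADP-ME. The position also differed between the media, at -1.11 ± 1.43 in nitrogen (SD, n = 26), 1.07 ± 0.611 in KCl (n = 27) and 0.00067 ± 1.06 at the start (n = 3), in units of its SD within groups. With this position as a covariate, an alternative added after seeing the data, the average log2 difference was -0.41 for PEPC (adjusted p = 7.23e-05), -0.34 for NADP-MDH (adjusted p = 0.000121) and -0.27 for CA-096 (adjusted p = 0.00549). It was -0.39 for CA-099, -0.23 for PPDK, -0.35 for NADP-ME (adjusted p = 0.000162) and -0.21 for PEPCK (adjusted p = 0.0496), and CA-095 lost its call at -0.31 (adjusted p = 0.263). So 7 genes were again called lower, where 4257 of all genes were called in either direction in place of 10830. The gap between PEPC and NADP-ME seen above was nearly gone, and NADP-ME lay within the range of the genes of the mesophyll steps. Differences between genes were not tested, so their order is not read. Of 72 single-time tests 12 were called in place of 25, where over all genes 6812 were called in place of 21889. Of the 12 calls 7 were at 20 min and the rest at 30 and 90 min, so the calls at 5, 15, 45 and 60 min were lost. Of the 25 calls 10 remained, and 5 of those were also kept whichever library was left out. The 2 gained calls were NADP-ME (-0.52, adjusted p = 0.00728) and CA-099 (-0.41, adjusted p = 0.0399, edgeR), both at 90 min. The part of this direction in the difference between PEPC and the decarboxylases cannot be told apart from the medium, since both move together.

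The genes most like each of the 8, by Pearson r of log2 CPM over the 19 group means among 15408 candidates, are named as a description. PEPC was followed most closely by Zm00001d014564 (r = 0.992), Zm00001d033666 (0.991) and Zm00001d011826 (0.989), NADP-MDH by Zm00001d042840 (0.977), Zm00001d019627 (0.977) and Zm00001d027581 (0.973), and PPDK by Zm00001d053432 (0.969), Zm00001d045366 (0.964) and Zm00001d032383 (0.962). For CA-099 they were Zm00001d033717 (0.966), Zm00001d037079 (0.954) and Zm00001d033594 (0.952), for CA-096 Zm00001d018936 (0.974), Zm00001d032272 (0.966) and Zm00001d046553 (0.964), and for CA-095 Zm00001d043600 (0.939), Zm00001d028530 (0.937) and Zm00001d042536 (0.937). For NADP-ME they were Zm00001d045621 (0.927), Zm00001d022107 (0.899) and Zm00001d034900 (0.894), and for PEPCK Zm00001d034828 (0.880), Zm00001d032197 (0.855) and Zm00001d045261 (0.847). None of the 8 genes was among the closest 3 of another. NADP-ME ranked 5 among the genes most like PEPCK, PEPCK ranked 21 for NADP-ME, and PPDK ranked 17 for CA-096.

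The gene models next to the 8 genes, 5 on each side, were examined in the average comparison. Of 52 neighbours that are not among the 8 genes, 26 were tested, 15 were called lower and 3 higher, beside 28.9% and 29.9% of all genes. Next to PPDK 7 of 8 tested neighbours were called lower: Zm00001d038155 (-3.09, from 526 counts in all), Zm00001d038156, Zm00001d038158, Zm00001d038161, Zm00001d038164, Zm00001d038165 and Zm00001d038167, the last 6 between -0.26 and -0.99. Next to PEPCK 4 of 5 were called lower: Zm00001d028472 (-0.76, 0.749 kb away on the other strand), Zm00001d028465, Zm00001d028474 and Zm00001d028477. Counting used no strand, so reads past the end of one of these close genes could be assigned to the other. Next to NADP-MDH Zm00001d031892 (-0.71) and Zm00001d031902 (-0.25) were called lower, and next to PEPC Zm00001d046168 (-1.06) lower and Zm00001d046166 (0.19) higher. Around the carbonic anhydrase cluster Zm00001d044101 (-0.13) was called lower and Zm00001d044090 (0.32) and Zm00001d044091 (0.53) higher. Between CA-096 and CA-099 both models had 0 counts in every library. NADP-ME has no neighbour on its contig.

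In the authors' deposited table of a gene network, which scores 203 regulators against 2732 targets, 3 of the 8 genes were targets and 0 were regulators. By the sum of its weights in the authors' deposited table PEPC ranked 1 of 2732 targets, CA-099 ranked 13 and CA-096 ranked 29. For PEPC the regulators with the largest weights in the authors' deposited table were Zm00001d001858 (98.5), Zm00001d034515 (96.8) and Zm00001d042582 (91.0). In the counts these regulators were called higher in nitrogen on average, by 0.98 (SE 0.122), 0.77 (SE 0.146) and 0.34 (SE 0.0648) on the log2 scale, opposite to PEPC. For CA-099 the authors' deposited table gave Zm00001d028974 (26.8), Zm00001d028603 (23.04) and Zm00001d013370 (22.95), of which Zm00001d028974 (-2.49, SE 0.212) and Zm00001d028603 (-0.15, SE 0.0576) were called lower in nitrogen, like CA-099, and Zm00001d013370 was not called (-0.51, adjusted p = 0.121, edgeR). For CA-096 it gave Zm00001d028603 (19.5), Zm00001d039260 (15.3) and Zm00001d034515 (12.6). Of these Zm00001d039260 was called lower in nitrogen (-0.98, SE 0.147), as was Zm00001d028603, and Zm00001d034515 was called higher. The regulators Zm00001d034515 and Zm00001d028603 occur in 2 of these lists. The making of the weights is not described in the sources at hand, and they may draw on the same libraries.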

How the data were processed

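The authors deposited raw whole-number counts per gene, and 57 labelled libraries were used. The submitters' processing notes list STAR 2.7.6a, UMI-tools 1.1.1, fastp 0.21.0 and featureCounts 2.0.1, but the file headers give featureCounts 1.5.1, AGPv4 annotation release 37 and counting without regard to strand. The authors' quantile-normalized table (18370 genes, 55 libraries) was deposited as rounded values and was treated as a score. The authors' network table holds a deposited score, called a weight, for each regulator and target. How both tables were made further is not given in the sources used. A further 2 columns of counts match no labelled sample and were left out.

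Groups were taken from the labels. A quasi-likelihood model of the 19 group means was fitted with edgeR 4.0.16 in R 4.3.3 after TMM scaling and filterByExpr, with 38 residual degrees of freedom. Tests were two-sided, p-values were Benjamini-Hochberg adjusted over all 18412 genes tested, each time on its own, and the threshold was 0.05. Each SE is the absolute log2 difference divided by the square root of F. Log2 CPM used a prior count of 2. The scripts were tested on simulated counts. DESeq2 1.42.0, limma 3.58.1 on log2 scores and the other alternatives are described in the closing part.

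The 8 genes, the lists and the tests were chosen with earlier results of these data known. Genes named besides the 8 were the 3 most alike in pattern (mean level 5 CPM or more), the called neighbours within 5 models on each side, and the 3 network regulators of largest weight. A list of other genes of C4 photosynthesis stayed empty, because 0 of 44146 nuclear gene IDs occur in the reference table of names. Counts of replicate libraries differed beyond sampling noise, at a chi-square per degree of freedom of 1.43 to 8.77 over 55 pairs.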

Additional observations from a re-analysis of the deposited data

How the results depend on the processing

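Averaged over the times, the 8 genes were lower in nitrogen in all 69 alternatives, of which 57 leave out 1 library, and PEPC, NADP-MDH, CA-096, CA-099 and PPDK were called in all 69. PEPC ran from -0.90 to -0.41. CA-095 was called in 68, the exception being the projected within-group axis (-0.31), and NADP-ME in 68, the exception being the fit without the 20 min groups (-0.09). PEPCK was called in 23, among them RLE size factors, DESeq2 and library totals without scaling. Leaving out a library gave 7 to 8 genes on average, where 10595 to 11142 of all genes were called. Of the 72 single-time tests 22 to 28 were then called, where 19863 to 24364 of those over all genes were. For KCl against the start 0 to 4 genes were called, where 436 to 2244 of all genes were. The other comparisons stayed at 0 to 0. The single-time count was 25 and fell to 12 with the projected axis, added after seeing the data. KCl against the start had 3 genes, 6 after adjusting for the within-group axis and 5 in a fit of the groups compared alone. Over all genes the calls there were 2054, 3030 and 2311. Nitrogen late minus early had 0, and 1 with the within-group axis. The cause was not tested. That axis averages 0 in each group by construction, whereas the projected axis does not.

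DESeq2 gave no adjusted p for CA-095 at 10 and 90 min. The fit of the 20 min groups alone filtered CA-095 out. Counts over all genes moved more. The average had 10830 calls and 4257 with the projected axis. The single times had 21889, and 6812 with the projected axis, 12284 with DESeq2 and 12454 with counts thinned to 1057488 per library. Late minus early had 260, and 634 without a filter, 493 with the within-group axis, 395 with the projected axis, 123 with DESeq2 and 125 thinned. KCl late minus early had 1136, and 606 with DESeq2 and 678 thinned. Nitrogen late minus early had 1179, and 1876 with the within-group axis, 559 with DESeq2 and 521 thinned. KCl against the start had 2054, and 947 with DESeq2, 972 thinned and 436 to 2244 without single libraries. Nitrogen against the start had 96, and 587 without a filter, 650 with the within-group axis, 52 in the groups compared alone, 46 with DESeq2 and 45 thinned. Without single libraries late minus early had 165 to 333, KCl late minus early 745 to 1363, nitrogen late minus early 762 to 1547 and nitrogen against the start 33 to 268.

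Same-numbered replicates did not deviate together: their mean correlation was 0.000826, and 61 of 495 pairs were over 0.1. The replicate block left 7 genes called on average and 25 single-time calls, with PEPC at -0.87. Depth limits CA-095, at a median of 11.5 counts per library, and the nitrogen 120 min group, where 1 of the 3 libraries had 8560 counts.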
